A study of Mus musculus with 23 samples.

Results

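Expression of 10 genes of the endoplasmic reticulum (ER) stress and integrated stress response was examined in B16-F1 melanoma tumors. These were Ern1, Xbp1, Atf6, Hspa5, Dnajb9, Atf4, Ddit3, Trib3, Asns and Chac1, out of 56748 genes in the deposited count table. The 10 were chosen by gene name, as the sensors of the response and their targets, with earlier results of these tumors known. Which of those results led to the choice is not recorded, so each contrast given here is treated as one that could have been used. Fold changes and adjusted p-values are therefore a description of the fit over all genes, and not independent evidence about the 10 genes. B16-F1, a mouse melanoma line of C57BL/6 origin, had been grown under the skin of DBA/2J mice aged 6 to 8 weeks, and the tumors were taken on day 14. Each of the 23 libraries came from 1 tumor, and the labels name no cultures or litters. With intraperitoneal (IP) administration there were 2 tumors in each group. CONTROL_IP received saline solution, PTX_IP received 60 mg/kg of pentoxifylline (PTX, a phosphodiesterase inhibitor), NCTD_IP received 3 mg/kg of norcantharidin (NCTD, an inhibitor of protein phosphatases of the PP2A type) and MIX_IP received both drugs at these doses. With intratumoral (IT) injection, CONTROL_IT received DMSO (4 tumors), PTX_IT received 60 mg/kg of PTX (3 tumors), NCTD_IT received 3 mg/kg of NCTD (4 tumors) and MIX_IT received both (4 tumors). Route, vehicle and the labelled batch changed together, so an effect of the route cannot be told apart from those of the other two.

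The ER folds secreted and membrane proteins, and unfolded protein in its lumen is sensed by IRE1 (encoded by Ern1), ATF6 and the kinase PERK. IRE1 splices the Xbp1 mRNA, after which XBP1 switches on genes for folding and degradation of ER proteins, Dnajb9 among them, while cleaved ATF6 acts mainly on chaperone genes such as Hspa5, which encodes BiP. PERK and related kinases phosphorylate eIF2 alpha, which lowers protein synthesis in general and raises translation of Atf4. ATF4 then drives genes for amino acid supply and stress output, including Asns, Ddit3 (CHOP), Trib3 and Chac1. Melanoma cells make large amounts of glycoproteins for melanosomes and are known for an active unfolded protein response. Counts per gene do not show splicing of Xbp1, cleavage of ATF6 or translation of Atf4, so only the level of each mRNA was measured here.

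To show the elements through which these factors are known to act, the promoters of the 10 genes were searched, from 250 bases before to 50 bases after the RefSeq start (RefSeq table on GRCm38.p6, with 9 of the 10 genes present, Atf6 being the one without an entry). Each of the 9 stretches matched GRCm39, the build of the count table, at 1 place on its chromosome, and coordinates are given on GRCm39. Motifs were searched on both strands. The ER stress response element (CCAAT, 9 bases of any kind, CCACG), bound by ATF6 with NF-Y, was found in Hspa5 from position -65 to -47 and in 0.119% of all 32851 promoters. The C/EBP-ATF composite element (TGATGNAA), bound by ATF4, was found in Asns from -23 to -16, in Trib3 from 15 to 22 and in Chac1 from -193 to -186, and in 3.97% of all promoters. The letters of the UPR element (TGACGTGG, in 0.676% of all promoters) and of ER stress response element II (ATTGG, 1 base of any kind, CCACG, in 0.0365%) were in none of the 9 windows. The 4 stretches with a match are shown 5′ to 3′ on the strand of the gene, with the match in capitals. Whether a match goes with the direction of change of a gene was not tested. The capitals in Trib3 and Chac1 are the reverse complement of the motif.
Hspa5, chr2:34662012-34662080, plus strand: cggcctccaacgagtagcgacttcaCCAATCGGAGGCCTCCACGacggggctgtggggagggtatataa
Asns, chr6:7693200-7693257, minus strand: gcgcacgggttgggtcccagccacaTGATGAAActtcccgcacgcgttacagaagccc
Trib3, chr2:152185934-152185991, minus strand: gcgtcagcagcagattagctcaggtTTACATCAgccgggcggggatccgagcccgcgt
Chac1, chr2:119181505-119181562, plus strand: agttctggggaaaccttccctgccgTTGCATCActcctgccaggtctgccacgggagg
In the annotation of the count table the Hspa5 stretch lies inside the gene, which starts at 34661982, the Asns and Trib3 stretches span the start of the gene, and the Chac1 stretch lies before it. The windows of Ern1, Xbp1, Dnajb9, Atf4 and Ddit3 held none of these 4 sets of letters, which says nothing about binding elsewhere.

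Libraries held 2861578 to 6702374 counts in genes (median 4013068), and levels are given as CPM, which are counts scaled to a common library total, adjusted by the trimmed mean of M values (TMM) over all 23 tumors. All 10 genes passed the filter on low counts in both routes (filterByExpr of edgeR, minimum count 10). A further row named Ddit3, of 105 bases, had 0 counts in every tumor and was not used. All 8 melanoma markers were detected in each group, with a summed level of 16022 to 38203 CPM. The IT groups also differed in host and RNA measures. Xist, expressed in female cells, was at 0 to 0.566 CPM in CONTROL_IT and at 0 in MIX_IT, but at 5.19 to 13.6 CPM in NCTD_IT and 1.28 to 11.6 CPM in PTX_IT. The Y-linked gene Ddx3y was at 1.03 to 8.98 CPM in CONTROL_IT and at 0 to 0.294 CPM in NCTD_IT, and at 6.83 to 15.5 CPM in MIX_IT. The labels give no sex, and the methods state that groups were matched for sex. The nuclear RNA Malat1 was at 76.3 to 96.5 CPM in CONTROL_IT, 279 to 693 in NCTD_IT, 74.2 to 424 in PTX_IT and 156 to 498 in MIX_IT. The predicted gene Gm10800 was at 204 to 377 CPM in CONTROL_IT, 1112 to 2800 in NCTD_IT, 695 to 1850 in PTX_IT and 216 to 994 in MIX_IT, and mitochondrial genes took 2.42% to 2.68%, 2.47% to 6.32%, 2.97% to 3.86% and 3.57% to 5.73% of counts in the same order. By the IP route, Xist was at 8.26 CPM in CONTROL_IP replicate 2 and at 0 in the other IP tumors. Ddx3y was at 0.451 CPM in that tumor and at 5.63 CPM in CONTROL_IP replicate 1, so the 2 IP controls differed in these host measures. Gm10800 was at 78.8 and 253 CPM in CONTROL_IP and at 82.3 and 3054 CPM in NCTD_IP. The part of all these measures in the results was not tested. In bulk tumors, fewer cells of a type and less RNA per cell cannot be told apart.

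**Figure D1:**
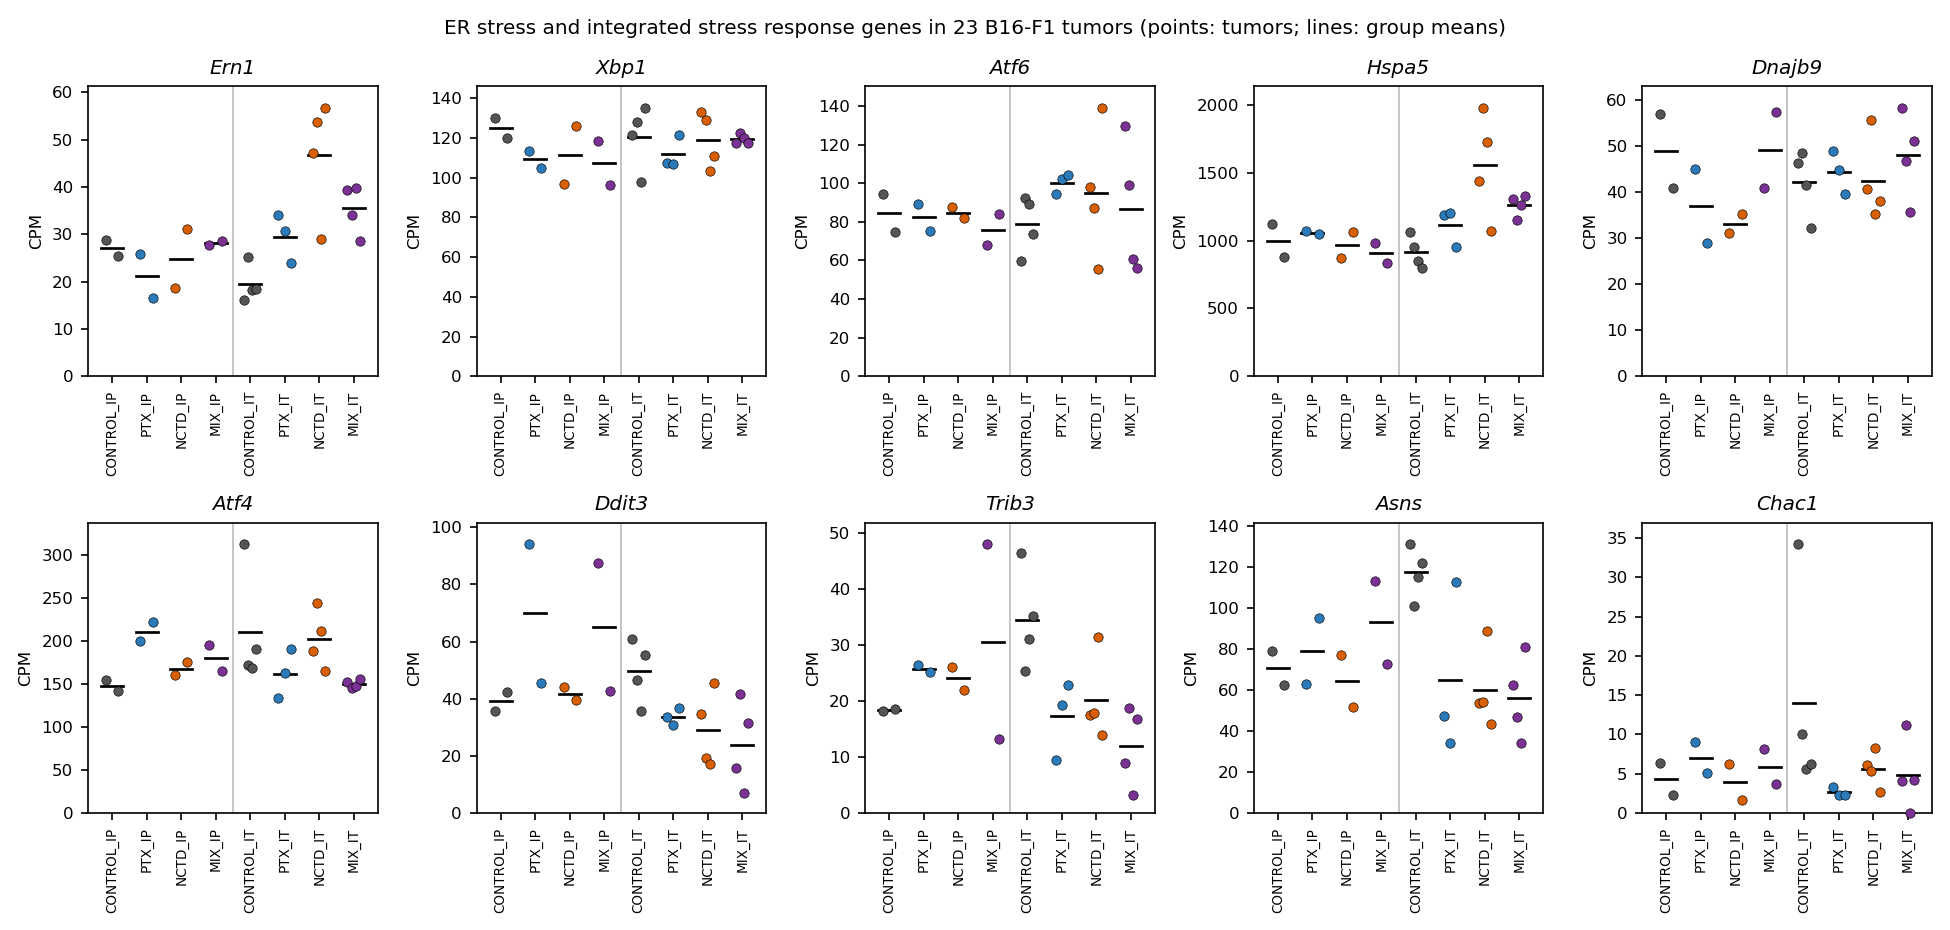
CPM (TMM-scaled, linear axis from 0) of the 10 genes in each of the 23 tumors, by group, with a horizontal line at each group mean and a vertical line between the IP and IT routes. Ern1 and Hspa5 were highest in NCTD_IT, Asns was at 101 to 131 CPM in CONTROL_IT and at most 88.5 CPM in NCTD_IT, and Xbp1 stayed between 96.5 and 135 CPM.

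Of the 10 genes, Ern1 and Hspa5 rose in NCTD_IT compared to CONTROL_IT, and none of the 10 passed edgeR's threshold in the other 5 comparisons with a control. In NCTD_IT these were 2 of 10 genes at an adjusted p below 0.05 in edgeR's quasi-likelihood test, beside 1.37% of the 12480 genes tested. At an unadjusted p below 0.05 the count was 3 of 10 in NCTD_IT (21.6% of all genes tested), 4 of 10 in PTX_IT (6.35%) and 6 of 10 in MIX_IT (13%). In PTX_IT and MIX_IT, 0% of all genes passed the adjusted threshold in edgeR. DESeq2 called 3 of 10 genes in NCTD_IT (10.6% of all genes with an adjusted p), 0 of 10 in PTX_IT (0.0773%) and 3 of 10 in MIX_IT (2.15%). By the IP route, edgeR called 0 of 10 genes and 0% of the 12424 tested in each comparison. At an unadjusted p below 0.05 the IP counts were 0 of 10 in NCTD_IP (3.59% of all genes), 1 of 10 in PTX_IP (5.3%) and 0 of 10 in MIX_IP (2.94%), and DESeq2 called 0 in each (0.253%, 0.0186% and 0.0452% of all genes), with 5 of the 10 given no adjusted p in NCTD_IP. The median log2 fold change of the 10 genes was -0.04 in NCTD_IT, -0.24 in PTX_IT and -0.25 in MIX_IT, beside 0.03, 0.02 and 0.01 over all genes.

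Tumor by tumor, 2 of the 10 genes were higher in every NCTD_IT tumor than in every CONTROL_IT tumor (7.82% of all genes) and 1 was lower in every tumor (8.95%). For PTX_IT, 1 gene lay wholly above CONTROL_IT (3.81%) and 2 wholly below (4.15%). For MIX_IT, 2 lay wholly above (4.93%) and 3 wholly below (4.98%). The genes above were Ern1 and Hspa5 in NCTD_IT and MIX_IT and Atf6 in PTX_IT. Those below were Asns in NCTD_IT, Trib3 and Chac1 in PTX_IT, and Atf4, Trib3 and Asns in MIX_IT. All 3 IT comparisons share the CONTROL_IT tumors.

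Among the sensors, Ern1 showed the widest differences. In CONTROL_IT, Ern1 was at 16.2, 25.2, 18.1 and 18.4 CPM in replicates 9 to 12. In NCTD_IT it was at 47.3, 53.7, 29.0 and 56.8 CPM in replicates 17 to 20. The 2 groups did not overlap, although NCTD_IT replicate 19 was close to the highest control. The mean of NCTD_IT was 46.7 ± 12.4 CPM against 19.5 ± 3.93 CPM for CONTROL_IT (SD, n = 4 each). This was a log2 fold change of 1.26 ± 0.23 (SE, or 2.39-fold, edgeR adjusted p = 0.028, DESeq2 adjusted p = 0.00036), which ranked 13 of 12480 genes by p. In MIX_IT, Ern1 was at 39.4, 34.0, 39.8 and 28.6 CPM in replicates 21 to 24, all above the controls. The log2 fold change there was 0.86 ± 0.23 (SE), which did not pass in edgeR (adjusted p = 0.16) and did in DESeq2 (adjusted p = 0.0449). In PTX_IT it was at 34.0, 30.6 and 23.9 CPM in replicates 13, 15 and 16, the last of which lay within the control range. The log2 fold change was 0.59 ± 0.24 (SE, edgeR adjusted p = 0.785).

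The call for Ern1 in NCTD_IT depended on single tumors and on the Xist covariate. Its adjusted p in edgeR went to between 0.0519 and 0.116 when CONTROL_IT replicate 9, 11 or 12, PTX_IT replicate 13, or NCTD_IT replicate 17 or 18 was left out, with the log2 fold change between 1.16 and 1.43 in all 15 such fits. With Xist (log2 CPM) added to the model, a gene that separates NCTD_IT from CONTROL_IT, the value was 0.40 (adjusted p = 0.894), and in MIX_IT, where Xist was at 0, it was 0.95 (adjusted p = 0.0502). In PTX_IT the sign turned, to -0.13. Xist was above the CONTROL_IT range in every NCTD_IT and PTX_IT tumor, so this fit cannot tell host sex from treatment. Whether host sex has a part in the NCTD_IT value was not tested.

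Atf6, the sensor that is cleaved in the Golgi, varied widely within NCTD_IT and MIX_IT (SD 34.5 and 34.6 CPM) and little within PTX_IT (SD 5.31 CPM). It was at 59.5, 92.5, 89.2 and 73.8 CPM in CONTROL_IT, at 94.2, 102 and 104 CPM in PTX_IT, at 97.9, 87.2, 55.7 and 139 CPM in NCTD_IT, and at 130, 99.1, 60.9 and 56.1 CPM in MIX_IT. Only the PTX_IT tumors lay wholly above the controls, with a log2 fold change of 0.34 ± 0.30 (SE, edgeR adjusted p = 0.857), or 0.22 without CONTROL_IT replicate 9. Xbp1, the target of IRE1 splicing, had group means from 107 ± 15.3 CPM (SD, n = 2) in MIX_IP to 125 ± 7.31 CPM (SD, n = 2) in CONTROL_IP. Its mean was 119 ± 14.2 CPM for NCTD_IT against 121 ± 16.3 CPM for CONTROL_IT (SD, n = 4 each), a difference smaller than the spread within either group.

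Hspa5, the ER chaperone with the response element shown above, rose in NCTD_IT. It was at 1062, 952, 849 and 796 CPM in CONTROL_IT replicates 9 to 12 and at 1442, 1981, 1728 and 1071 CPM in NCTD_IT replicates 17 to 20. The groups did not overlap, but NCTD_IT replicate 20 lay close to CONTROL_IT replicate 9. The means were 1556 ± 391 CPM (SD, n = 4) against 915 ± 117 CPM (SD, n = 4). The log2 fold change was 0.77 ± 0.18 (SE, or 1.7-fold, edgeR adjusted p = 0.0482, DESeq2 adjusted p = 0.00418). In MIX_IT the 4 tumors were close together at 1304, 1152, 1261 and 1333 CPM, all above the controls, with a log2 fold change of 0.46 ± 0.18 (SE, edgeR adjusted p = 0.283). PTX_IT tumors were at 1186, 1204 and 952 CPM, the last within the control range, with a log2 fold change of 0.28 ± 0.19 (SE, edgeR adjusted p = 0.821).

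The Hspa5 call in NCTD_IT was held in 4 of the 15 fits that left out a tumor. It was lost, with an adjusted p of 0.0542 to 0.157 in edgeR, without any of CONTROL_IT replicates 9 to 12, PTX_IT replicate 13, NCTD_IT replicates 17 to 19 or MIX_IT replicates 21, 22 and 24, and also with the Xist covariate (log2 fold change 0.64, adjusted p = 0.838). Dnajb9, the ER co-chaperone ERdj4 that binds BiP and is a known target of XBP1, did not follow Hspa5. Its means were 42.5 ± 9.16 CPM (SD, n = 4) in NCTD_IT, 48.0 ± 9.52 CPM (SD, n = 4) in MIX_IT and 42.2 ± 7.26 CPM (SD, n = 4) in CONTROL_IT.

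Atf4 mRNA, the node of the integrated stress response, was at 313, 172, 169 and 191 CPM in CONTROL_IT, so that replicate 9 stood apart. It was at 188, 244, 212 and 165 CPM in NCTD_IT, inside the control range or just below it. In MIX_IT the tumors were at 153, 145, 148 and 156 CPM, all below the controls, with a log2 fold change of -0.49 ± 0.20 (SE, edgeR adjusted p = 0.31). In PTX_IT they were at 134, 163 and 191 CPM (log2 fold change -0.38, standard error 0.21, edgeR adjusted p = 0.8). Leaving out CONTROL_IT replicate 9 brought the values to -0.24 in MIX_IT and -0.14 in PTX_IT.

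The ATF4 targets lay lower in the treated IT groups than in CONTROL_IT by point estimate, and none passed the adjusted threshold in edgeR. Asns, which makes asparagine, was at 131, 101, 115 and 122 CPM in CONTROL_IT replicates 9 to 12. In NCTD_IT it was at 53.4, 54.0, 88.5 and 43.2 CPM, and in MIX_IT at 62.5, 46.7, 34.0 and 81.0 CPM, with no overlap with the controls in either. In PTX_IT it was at 47.4, 34.2 and 112 CPM, with replicate 16 at the level of the controls. Its log2 fold change was -0.97 in NCTD_IT (standard error 0.34, edgeR adjusted p = 0.115, DESeq2 adjusted p = 0.0018). In MIX_IT it was -1.07 ± 0.34 (SE, edgeR adjusted p = 0.197, DESeq2 adjusted p = 0.00948), and in PTX_IT -0.85 ± 0.37 (SE, edgeR adjusted p = 0.785), with -1.53 when PTX_IT replicate 16 was left out and -0.54 when replicate 15 was. With the Xist covariate the sign turned in NCTD_IT (0.84) and PTX_IT (0.51) but not in MIX_IT (-1.29).

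Trib3, a pseudokinase that is induced by ATF4 and CHOP, was at 46.3, 25.4, 31.0 and 35.1 CPM in CONTROL_IT. It was at 9.0, 18.7, 3.2 and 16.8 CPM in MIX_IT and at 9.5, 19.3 and 22.9 CPM in PTX_IT, all below the controls. NCTD_IT was at 17.4, 17.9, 31.5 and 13.9 CPM, where replicate 19 reached the control range. The log2 fold change of Trib3 was -1.51 in MIX_IT (standard error 0.42, edgeR adjusted p = 0.172, DESeq2 adjusted p = 0.0283), -0.997 in PTX_IT and -0.78 in NCTD_IT. The last of these also turned sign with the Xist covariate (0.29).

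Ddit3 encodes CHOP, a transcription factor tied to cell death under prolonged ER stress. It was at 60.8, 46.7, 35.8 and 55.4 CPM in CONTROL_IT, at 34.6, 19.4, 16.9 and 45.6 CPM in NCTD_IT, at 33.4, 30.6 and 36.7 CPM in PTX_IT and at 15.6, 41.7, 6.8 and 31.5 CPM in MIX_IT. Each treated group overlapped the controls, with log2 fold changes of -0.76, -0.56 and -1.05 (standard errors 0.41, 0.45 and 0.41). Chac1, which degrades glutathione, was a low-count gene at 34.2, 10.1, 5.5 and 6.2 CPM in CONTROL_IT. In MIX_IT replicate 23 it had 0 counts, where the limit that a count of 0 allows (3 counts) is 0.727 CPM, and the other 3 tumors were at 4.1, 11.2 and 4.2 CPM. PTX_IT was at 3.3, 2.3 and 2.3 CPM, from 7 to 12 counts. Its log2 fold changes were -2.39 in PTX_IT, -1.49 in MIX_IT and -1.32 in NCTD_IT (standard errors 0.91, 0.76 and 0.76). Without CONTROL_IT replicate 9 they were -1.47, -0.58 and -0.39, so that 1 control tumor set much of their size, and the MIX_IT value was -2.31 without replicate 22.

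That control tumor held the highest level of 6 of the 10 genes in CONTROL_IT (Hspa5, Atf4, Ddit3, Trib3, Asns and Chac1) and the lowest level of Ern1 and Atf6. Among the MIX_IT tumors, replicate 23 held the lowest level of Ddit3, Trib3, Asns and Chac1 and the highest of Ern1. Such tumor-to-tumor differences within a group were as large as many of the differences between groups.

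**Figure D2:**
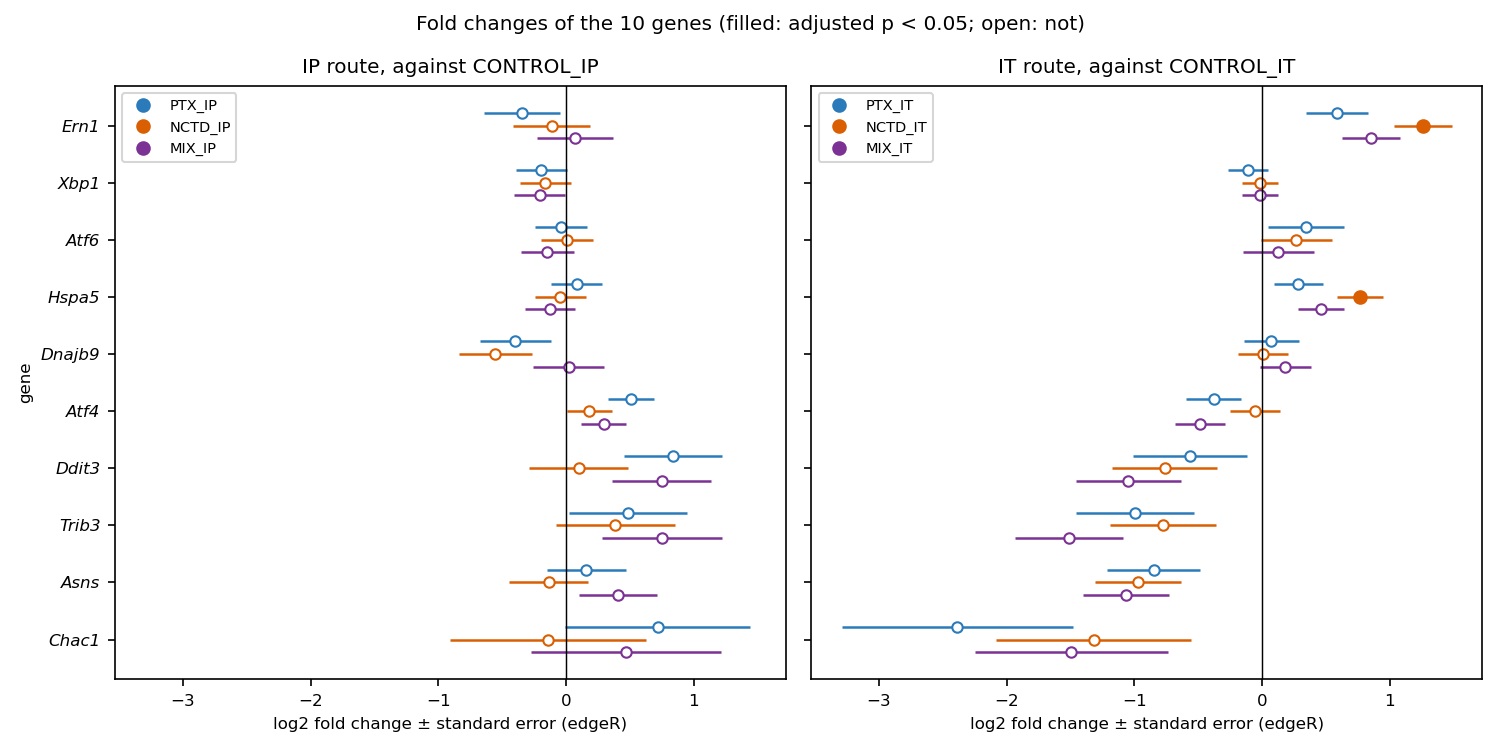
Log2 fold change against the control of the same route (x axis, edgeR, bars are standard errors) for the 10 genes, with PTX, NCTD and MIX in separate colors and filled points for an adjusted p below 0.05. Filled points are Ern1 (1.26) and Hspa5 (0.77) in NCTD_IT. The 5 genes from Atf4 to Chac1 lie left of 0 in all 3 IT comparisons, a side that changed with the Xist covariate for Asns, Trib3 and Chac1 in NCTD_IT and for Asns and Atf4 in PTX_IT.

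By the IP route each group holds 2 tumors. The point estimates of the ATF4 targets lay there on the other side of 0 in PTX_IP and MIX_IP. For Asns they were 0.16 ± 0.31 and 0.41 ± 0.31, and for Chac1 0.72 ± 0.73 and 0.47 ± 0.74 (SE, in that order). In NCTD_IP they were mixed, at -0.14 for Asns and for Chac1, 0.10 for Ddit3 and 0.39 for Trib3. Each of these NCTD_IP values was smaller than its standard error. Atf4 was at 155 and 142 CPM in CONTROL_IP and at 200 and 222 CPM in PTX_IP, both above the controls. Its log2 fold change in PTX_IP was 0.51 ± 0.18 (SE, edgeR adjusted p = 0.906). Ddit3 was at 35.7 and 42.4 CPM in CONTROL_IP, at 94.2 and 45.6 CPM in PTX_IP and at 87.7 and 42.6 CPM in MIX_IP, so that 1 tumor of each treated group was high. The log2 fold change of Ddit3 was 0.84 in PTX_IP (standard error 0.38) and 0.22 without replicate 3. In MIX_IP it was 0.75 ± 0.39 (SE), with 0.14 without replicate 7 and 1.19 without replicate 8. Trib3 was at 18.2 and 18.5 CPM in CONTROL_IP and at 48.0 and 13.2 CPM in MIX_IP, where the log2 fold change of 0.75 ± 0.47 (SE) became -0.46 without replicate 7 and 1.41 without replicate 8. Ern1 stayed between 16.6 and 31.0 CPM and Hspa5 between 838 and 1122 CPM in all 8 IP tumors. Dnajb9 was at 57.1 and 40.9 CPM in CONTROL_IP and at 31.1 and 35.3 CPM in NCTD_IP (log2 fold change -0.55, standard error 0.28, edgeR adjusted p = 0.999), a value of -0.30 without replicate 1.

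To compare the treatments with each other, the same fit was used within the IT route, and none of the 10 genes passed in edgeR between NCTD_IT and PTX_IT (0% of all genes called), MIX_IT and NCTD_IT (0.00801%) or MIX_IT and PTX_IT (0%). At an unadjusted p below 0.05 there were 2, 1 and 0 of 10 genes, beside 3.87%, 6.02% and 3.75% of all genes, and DESeq2 called 0 in each (0.00851%, 0.0811% and 0.0431%). Ern1 was higher in NCTD_IT than in PTX_IT by a log2 value of 0.67 ± 0.24 (SE) and Hspa5 by 0.49 ± 0.20 (SE), with an adjusted p of 0.999 for both in edgeR. MIX_IT against NCTD_IT was -0.40 ± 0.22 for Ern1 (SE), -0.31 ± 0.18 for Hspa5 (SE) and -0.43 ± 0.20 for Atf4 (SE). The departure of MIX_IT from the sum of the 2 single-drug changes was -0.99 ± 0.33 for Ern1 (SE, edgeR adjusted p = 0.379) and -0.59 ± 0.26 for Hspa5 (SE, adjusted p = 0.432). For this contrast 0 of 10 genes passed, beside 0.0401% of all genes, with 2 at an unadjusted p below 0.05 (11.3%) and 0 in DESeq2 (0.152%). A test of any difference among the 4 IT groups passed 0 of 10 genes in edgeR (0.024% of all genes), 4 at an unadjusted p below 0.05 (12.9%), and 2 in DESeq2 (2.9%), which were Ern1 (adjusted p = 0.00358) and Hspa5 (adjusted p = 0.0268). The same test over the 4 IP groups passed 0 of 10 (0% of all genes), with 0 at an unadjusted p below 0.05 (3.27%) and 0 in DESeq2 (0.0803%).

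Whether a change differed between the routes was tested with all 23 tumors in 1 model, and 0 of 10 genes passed for NCTD, PTX or MIX (0% of the 13395 genes tested for each). At an unadjusted p below 0.05 there were 2, 3 and 5 of 10 genes, beside 10.8%, 5.23% and 7.44% of all genes. DESeq2 called 0 of the 9, 7 and 5 genes of the 10 to which it gave an adjusted p (2.88%, 0.0983% and 1.12% of all genes). For NCTD, the IT change minus the IP change was 1.38 ± 0.39 for Ern1 (SE, edgeR adjusted p = 0.294) and 0.81 ± 0.29 for Hspa5 (SE, adjusted p = 0.329). For MIX it was -2.25 ± 0.73 for Trib3 (SE, adjusted p = 0.585), -1.78 ± 0.69 for Ddit3 (SE) and -1.46 for Asns (standard error 0.55). For PTX it was -0.89 ± 0.32 for Atf4 (SE) and -3.11 ± 1.36 for Chac1 (SE), both with an adjusted p of 0.892 in edgeR.

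Over the 8 groups, mean Ern1 and Hspa5 followed the same order at the top, with NCTD_IT first, then MIX_IT and PTX_IT. Of the 7 steps between neighboring groups in each order, 6 were no larger than the greater of the 2 SDs for Ern1 and for Hspa5, the step from MIX_IT to PTX_IT being the one that was larger. Ern1 was lowest in CONTROL_IT, at 19.5 CPM, and Hspa5 in MIX_IP, at 909 CPM. Asns, Trib3 and Chac1 were highest on average in CONTROL_IT. Asns ranged from 117 ± 12.6 CPM (SD, n = 4) there down to 56.0 ± 20.3 CPM (SD, n = 4) in MIX_IT, and all of its 7 steps, like those of Trib3, Chac1, Atf4, Atf6, Xbp1 and Dnajb9, were within the greater SD. Ddit3 was highest in PTX_IP, at 69.9 ± 34.3 CPM (SD, n = 2), and lowest in MIX_IT, at 23.9 ± 15.6 CPM (SD, n = 4), with 1 step, from CONTROL_IP to PTX_IT, beyond the SD.

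Cell type markers moved with the IT groups, and their part in the values of the 10 genes was not tested. Of 12 markers of plasma and B cells (plasma cells carry much ER), 8 were detected in NCTD_IT, at a summed 63.6 to 147 CPM, and 9 in CONTROL_IT, at 39.1 to 63.7 CPM. Mzb1 and Cd79a were at 0 in both groups. The 9 macrophage markers summed to 589 to 1645 CPM in NCTD_IT and 222 to 1053 CPM in CONTROL_IT. The 8 fibroblast markers summed to 393 to 1682 CPM in NCTD_IT, 494 to 8611 CPM in MIX_IT and 109 to 370 CPM in CONTROL_IT, with no overlap between NCTD_IT or MIX_IT and the controls, and to 260.2 to 813 CPM in PTX_IT, which overlapped them. The 7 endothelial markers summed to 80.6 to 147 CPM in NCTD_IT, 69.0 to 225 CPM in MIX_IT and 56.0 to 86.0 CPM in PTX_IT against 40.2 to 63.4 CPM in CONTROL_IT. The 8 neutrophil markers, Ly6g being at 0, summed to 18.9 to 1094 CPM in NCTD_IT and 4.0 to 11.2 CPM in CONTROL_IT. The 8 melanoma markers summed to 20072 to 28067 CPM in NCTD_IT and 27348 to 33114 CPM in CONTROL_IT. Of 9 T and NK cell markers tested, 9 were higher in NCTD_IT (median log2 fold change 1.83), 9 in PTX_IT (1.35) and 7 in MIX_IT (0.61). Of 4 erythroid markers tested, 0 were higher in each (medians -1.77, -1.70 and -0.22). In both lists 0 markers passed the adjusted threshold in edgeR. In NCTD_IT, 2 of 4 neutrophil markers tested (median log2 fold change 3.89) and 1 of 6 endothelial markers tested passed it as higher. There 1 of 8 melanoma markers passed it as lower, beside 1.37% of all genes. Of the plasma and B cell, macrophage and fibroblast markers tested in NCTD_IT, 0 passed.

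To place the 10 genes in their pathway, 127 other genes were listed in 6 groups by function, of which 117 passed the filter. None had an adjusted p below 0.05 in edgeR in any of the 6 comparisons with a control. At an unadjusted p below 0.05, 17 were higher and 21 lower in NCTD_IT (beside 21.6% of all genes in either direction), 4 and 6 in PTX_IT (6.35%), and 11 and 13 in MIX_IT (13%). DESeq2 called 8 higher and 9 lower in NCTD_IT (10.6% of all genes), 1 and 1 in PTX_IT (0.0773%), 3 and 1 in MIX_IT (2.15%), and 1 and 0 in MIX_IP (0.0452%). Among ER chaperones, Hsp90b1, the ER form of HSP90, averaged 1861 ± 543 CPM over the NCTD_IT tumors against 1001 ± 93.7 CPM over the controls (SD, n = 4 each). Its log2 fold change of 0.90 ± 0.22 (SE) missed the threshold in edgeR (adjusted p = 0.0514) and passed in DESeq2 (0.00107). Ero1b, an oxidase that reloads the disulfide isomerase, stood at 0.95 in NCTD_IT (edgeR adjusted p = 0.0555) and 0.69 in PTX_IT (0.785). As a list the 19 chaperones tested had a median of only 0.12 in NCTD_IT, with 11 higher and 8 lower, beside 0.03 over all genes.

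As a list, genes of ER-associated degradation and translocation were near the median of all genes as well. Their median log2 fold change was 0.03 in NCTD_IT and 0.05 in MIX_IT over 25 genes. At an unadjusted p below 0.05 in edgeR, 8 were higher and 2 lower in NCTD_IT (21.6% of all genes in either direction). In MIX_IT there were 4 and 1 (13%). Edem3, which trims mannose from misfolded glycoproteins, stood at 0.76 in MIX_IT (edgeR adjusted p = 0.175, DESeq2 adjusted p = 0.0377), 0.62 in PTX_IT and -0.50 in NCTD_IP. Vcp, the ATPase that extracts proteins from the ER, stood at 0.54 in MIX_IT (edgeR adjusted p = 0.166, DESeq2 adjusted p = 0.0474). Of 23 sensors, kinases and regulators, 12 were higher and 11 lower in NCTD_IT, with a median of 0.01. Eif2b2, a subunit of the exchange factor that phosphorylated eIF2 blocks, averaged 32.5 ± 11.1 CPM over the NCTD_IT tumors against 77.8 ± 4.35 CPM over the controls (SD, n = 4 each), which was -1.27 ± 0.32 on the log2 scale (SE, edgeR adjusted p = 0.0556, DESeq2 adjusted p = 0.00016).

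The cytosolic aminoacyl-tRNA synthetases, which charge tRNAs and include many ATF4 targets, lay on the same side as Asns by count. Of 20, 16 were lower in NCTD_IT (median log2 fold change -0.37), 18 in PTX_IT (-0.29) and 19 in MIX_IT (-0.27), while 18 were higher in MIX_IP (0.27), beside medians over all genes of 0.03, 0.02, 0.01 and -0.01. Nars, the asparaginyl-tRNA synthetase, averaged 57.8 ± 10.4 CPM over the NCTD_IT tumors against 112 ± 21.5 CPM over the controls (SD, n = 4 each), which was -0.96 on the log2 scale (edgeR adjusted p = 0.0579, DESeq2 adjusted p = 0.00063), and stood at -0.72 in PTX_IT. In MIX_IT, Sars, the seryl-tRNA synthetase, stood at -1.04 (edgeR adjusted p = 0.197) and Qars, the glutaminyl-tRNA synthetase, at -0.53 (0.23). Of 19 genes for amino acid supply, 17 were lower in PTX_IT (median -0.69), 13 in MIX_IT (-0.20) and 12 in NCTD_IT (-0.10). Those higher were 17 in MIX_IP (0.38), 16 in PTX_IP (0.20) and 8 in NCTD_IP (-0.02). Slc3a2, the heavy chain shared by amino acid exchangers, was at 213 ± 61.8 CPM (SD, n = 3) in PTX_IT and 343 ± 72.4 CPM (SD, n = 4) in CONTROL_IT, a log2 fold change of -0.69 (edgeR adjusted p = 0.785).

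Of the 11 genes for ATF4-driven factors and stress outputs that were tested, 10 were higher in MIX_IP (median log2 fold change 0.46). There were 9 in PTX_IP (0.42) and 8 in NCTD_IP (0.10), against 7 in NCTD_IT (0.08), 5 in PTX_IT and 4 in MIX_IT. Sqstm1, the autophagy receptor p62, averaged 803 ± 23.6 CPM over the MIX_IP tumors against 323 ± 23.4 CPM over the controls (SD, n = 2 each). Its log2 fold change there was 1.32 ± 0.33 (SE, edgeR adjusted p = 0.999, DESeq2 adjusted p = 5.2e-09), and it was 0.76 in PTX_IP. Cdkn1a, the cell cycle inhibitor p21, stood at 0.90 in MIX_IP (standard error 0.21, edgeR adjusted p = 0.999).

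The remaining genes with the smallest p by the IP route, none with an adjusted p under 0.906 in edgeR, were of mixed function. In NCTD_IP they were Slc43a1, an amino acid transporter (log2 fold change 2.02, at 2.93 against 0.733 CPM), Shmt2, of mitochondrial serine metabolism (0.86), and Creb3l2, an ER-bound transcription factor (-0.42). In PTX_IP they were Sars (0.62), Got1, an aspartate aminotransferase (-0.47), and the cell death gene Bcl2l11 (-0.77). In MIX_IP they were Mbtps1, the protease that cleaves ATF6 (-0.60), and Dnajc10, an ER disulfide reductase (-0.42).

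**Figure D3:**
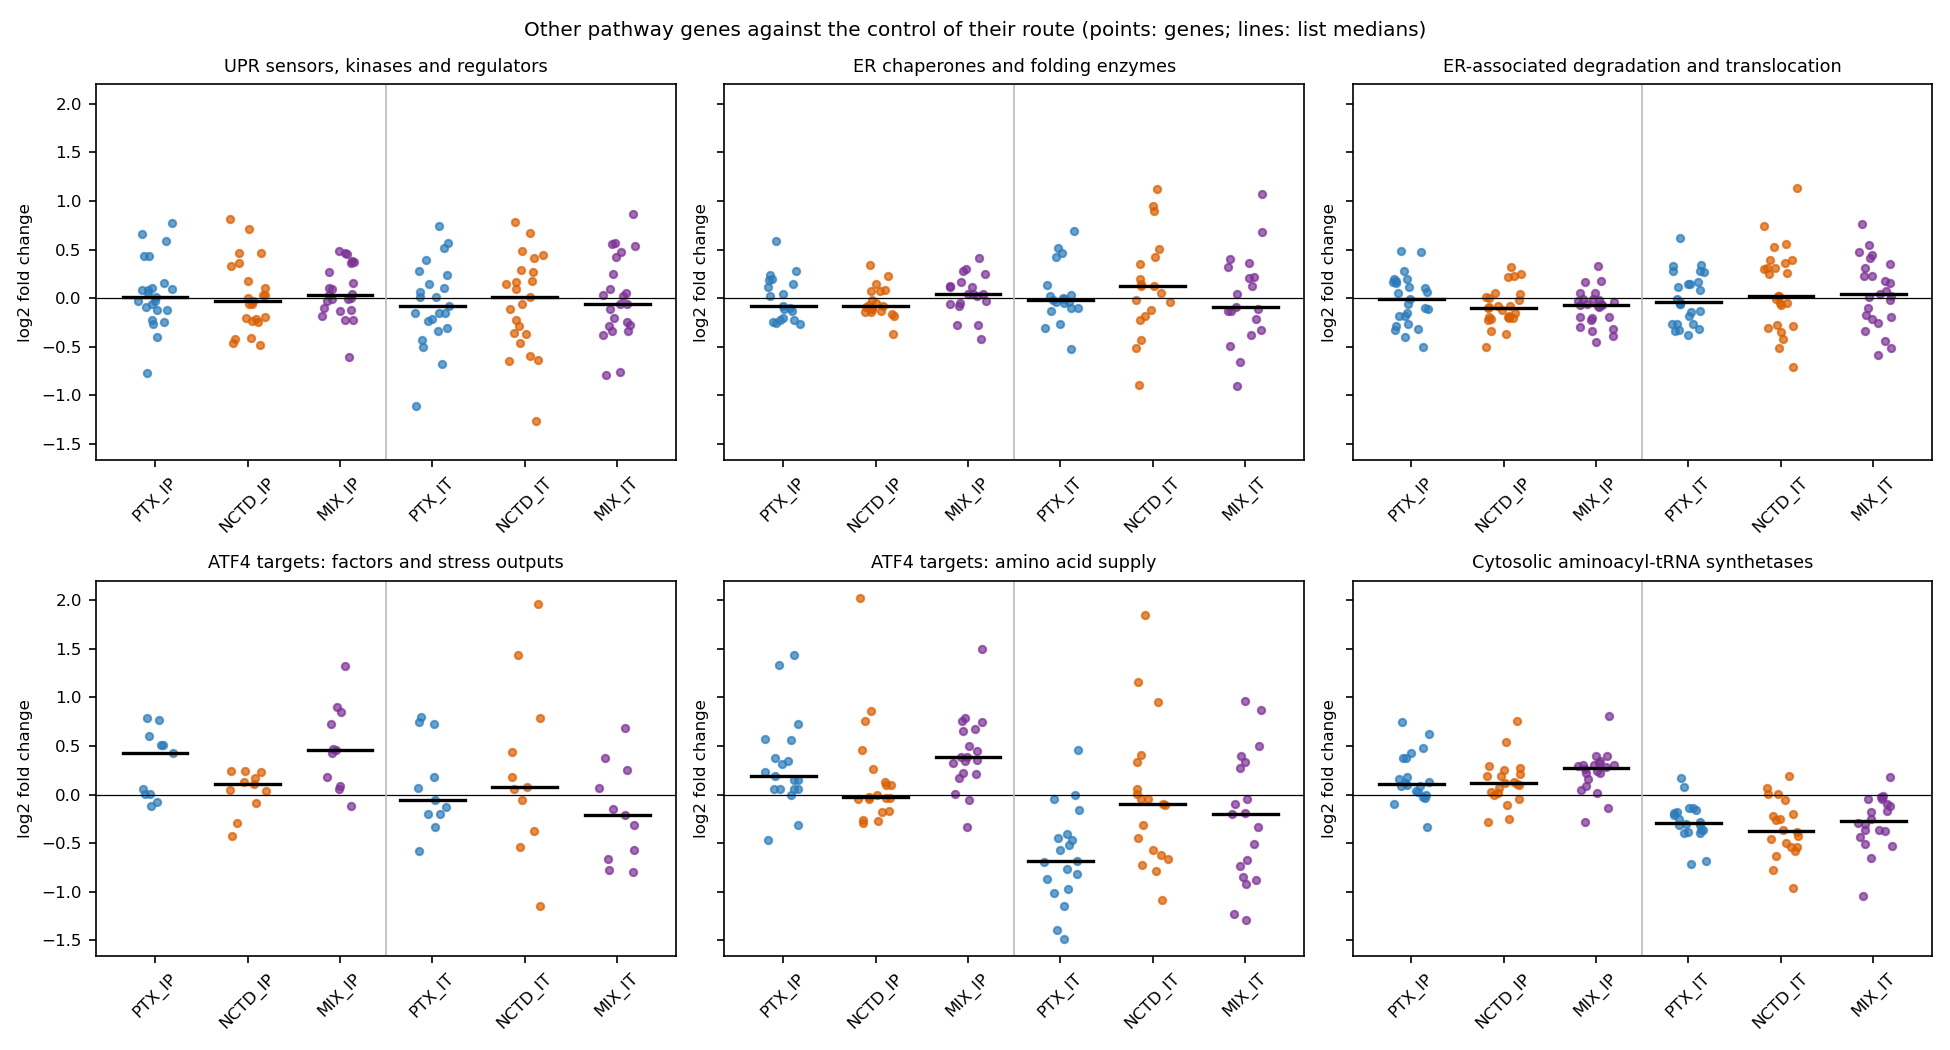
Log2 fold change (y axis, edgeR) of the other pathway genes that passed the filter, 1 point per gene, in 6 lists and 6 comparisons with the control of the same route, with a line at each list median. The tRNA synthetases sit mostly below 0 in the IT comparisons (medians -0.37 to -0.27) and above 0 in MIX_IP (0.27).

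Variation between tumors of the same group was examined in all 45 pairs of the 10 genes, by Pearson's r of log2 CPM after removal of group means, with 100000 permutations of tumors within groups and adjustment over the 45 pairs. In 2 pairs the adjusted p was below 0.05, both negative and both with Ern1. The share of pairs of other genes that would pass was not computed, so this count is not read as particular to the 10 genes. Ern1 and Asns had r = -0.71 (permutation p = 0.00124, adjusted p = 0.0279, Spearman's rho = -0.71, permutation p = 0.00115, adjusted p = 0.0259). Their r was -0.71 over the 8 IP tumors, -0.72 over the 15 IT tumors, and -0.70 without the 2 tumors farthest from the median of Ern1. Ern1 and Trib3 had r = -0.54 (permutation p = 0.00035, adjusted p = 0.0158, Spearman's rho = -0.61, permutation p = 0.00091, adjusted p = 0.0259). That relation was -0.70 within the IT tumors but -0.12 within the IP tumors, so it was not seen within the IP batch, and it was -0.53 without the 2 farthest tumors. Removal of group means leaves the 2 tumors of an IP group as mirror images, so the IP values rest on 4 independent differences.

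The count of such pairs went to 0 without NCTD_IT replicate 19, to 4 without PTX_IT replicate 16, and to 1 without any of replicates 5, 6, 17, 18, 20, 23 and 24. Values between the ATF4 targets were positive, and none passed. The highest were Trib3 with Chac1 (r = 0.71, permutation p = 0.0045, adjusted p = 0.0675) and Trib3 with Asns (r = 0.61, permutation p = 0.0263, adjusted p = 0.197). The lowest was Ddit3 with Asns (r = 0.14). Without the 2 tumors farthest from the median of the first gene, Trib3 with Chac1 was at 0.55 and Ddit3 with Asns at -0.06. Ern1 and Hspa5, which both rose in NCTD_IT, had r = 0.02 within groups (permutation p = 0.965, adjusted p = 0.977). All values of a tumor come from 1 library, so depth and composition are shared by both genes of a pair. NCTD_IT replicate 19 had the lowest Ern1, highest Asns and lowest Malat1 (279 CPM) of its group, as had PTX_IT replicate 16 (Malat1 74.2 CPM). MIX_IT replicate 23 had the highest Ern1, lowest Asns and highest Malat1 (498 CPM). In CONTROL_IT, Ern1 was highest in replicate 10 and Malat1 in replicate 12, and in CONTROL_IP the tumor with less Ern1 had more Malat1. The part of Malat1 in these correlations was not tested.

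**Figure D4:**
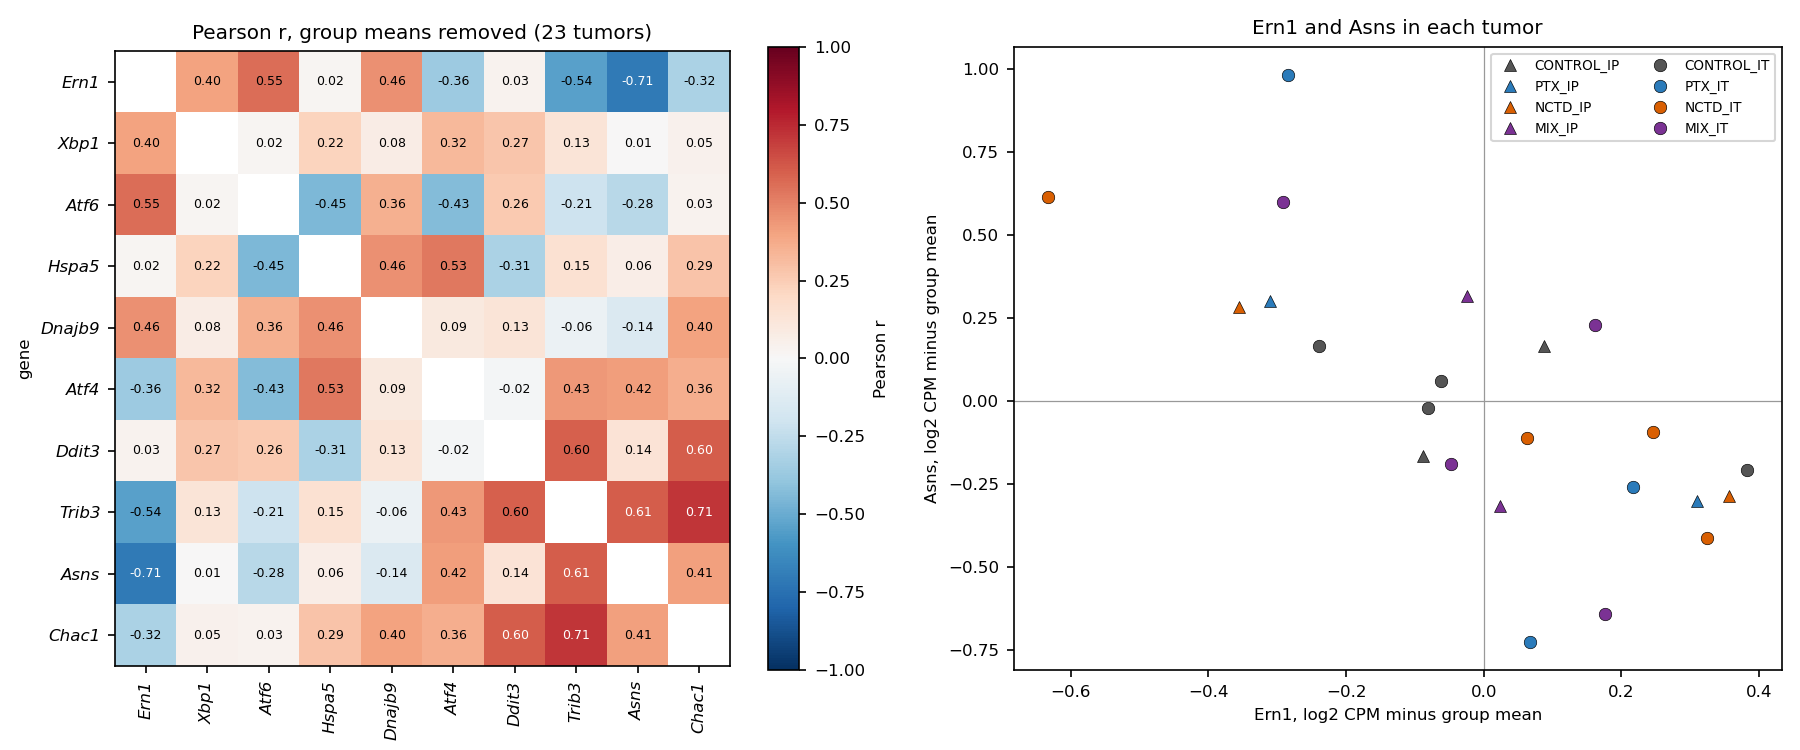
Left, Pearson's r for each pair of the 10 genes over 23 tumors after removal of group means. Right, Ern1 (x axis) against Asns (y axis) in each tumor, both as log2 CPM minus the group mean, with circles for IT and triangles for IP, where tumors with more Ern1 than their group tend to have less Asns (r = -0.71).

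Over all genes tested, the genes whose pattern between tumors was most like that of each of the 10 were listed as a description, by the same r over 23 tumors and with no test. For Hspa5 the nearest was Hsp90b1 (r = 0.86). For Asns these were Gars, the glycyl-tRNA synthetase (r = 0.94), and Eif3g, a translation initiation factor subunit (r = 0.93). Ern1 lay nearest to Rnf128 (r = 0.86) and Abca1 (r = 0.86), Trib3 to Armt1 (r = 0.87), Chac1 to Sh3gl1 (r = 0.87), Ddit3 to Sectm1a (r = 0.86) and Atf4 to Tedc1 (r = 0.85). Atf6 lay nearest to Cyth1 (r = 0.86). The second gene in each list was Hif1an for Hspa5 (r = 0.85), Rpl31-ps14 for Trib3 (r = 0.84), Saysd1 for Chac1 (r = 0.87), Mtmr3 for Ddit3 (r = 0.86), Foxred2 for Atf4 (r = 0.85) and Galnt15 for Atf6 (r = 0.84). For Xbp1 a gene without a symbol (r = 0.82) and Vcan (r = 0.80) were nearest, and for Dnajb9 Mkln1os (r = 0.79) and Gm42715 (r = 0.79), all at less than 4 CPM on average.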

How the data were processed

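RNA was measured in 23 tumors with the Collibri 3′ mRNA library kit. The authors trimmed reads with Trimmomatic, aligned them to GRCm39 with STAR 2.7.11b and deposited raw gene counts, from which all values here were computed. No column was left unmapped to a tumor. Counts were tested with edgeR 4.0.16 (filterByExpr, TMM, quasi-likelihood F test, two-sided, Benjamini-Hochberg over all genes tested in R 4.3.3), with the 4 groups of a route in 1 fit and all 23 tumors for differences between routes. Alternatives were DESeq2 1.42.0 on the groups compared, its size factors in edgeR, no filter on low counts, other sets of tumors in the fit, the Xist covariate, an unadjusted threshold and leaving out each tumor. CPM and log2 CPM (prior count 2) used TMM factors of all 23 tumors. The scripts were tested on simulated data. The 10 genes, the pathway lists and the markers were chosen with earlier results of these data known. All 10 genes were tested in every comparison, though values are given in the text for only part of them in some. Other pathway genes were named where the adjusted p was below 0.05 or the unadjusted p was among the 2 smallest in a direction. Like genes were named by the 2 highest r. Replicates differed by more than sampling noise (chi-square per degree of freedom 8.09 to 64.6). The labels do not state whether tumors are from separate mice. The methods describe cells implanted in the right flank of every mouse, which would give 1 tumor per mouse. P-values of the fits set differences between groups against the spread between these tumors within groups. Fold changes of low-count genes are limited by depth (3 counts are 0.448 to 1.05 CPM).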

Additional observations from a re-analysis of the deposited data

Results flagged for a closer look

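Of 30 combinations of a gene and an IT group of 4 tumors, 2 held a tumor whose gap to its nearest neighbor passed Dixon's critical value as a share of the group's range, where chance gives about 1 in 20. Both were CONTROL_IT replicate 9. Atf4 was at 313 CPM there, and the gap was 0.847 of the range. Chac1 was at 34.2 CPM there, and the gap was 0.842 of the range.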

How the results depend on the processing

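Of 33 log2 fold changes of the 10 genes that exceeded their standard error, 32 kept their sign when any tumor was left out. Trib3 in MIX_IP reversed to -0.46 without replicate 7 (range -0.46 to 1.41). The Xist covariate reversed Asns (0.84), Trib3 (0.29) and Chac1 (0.12) in NCTD_IT and Asns (0.51), Atf4 (0.047) and Ern1 (-0.13) in PTX_IT, and left 0 of 10 genes called in NCTD_IT. Xist separated NCTD_IT and PTX_IT from CONTROL_IT, so these fits cannot tell host sex from treatment. The cause was not tested. Leaving out each tumor in turn gave 0 to 3 of the 10 genes called in NCTD_IT, 0 to 15 other pathway genes there (15 without replicate 23) and 0 to 4 correlated pairs. With route means in place of group means, 9 pairs passed. An unadjusted threshold gave 3 of 10 genes in NCTD_IT, 4 in PTX_IT, 6 in MIX_IT and 1 in PTX_IP. It gave 2 of 10 in NCTD_IT against PTX_IT, 1 in MIX_IT against NCTD_IT, 2 in the departure from the sum, 4 among the IT groups, and 2, 3 and 5 in the route differences for NCTD, PTX and MIX, beside 3.87%, 6.02%, 11.3%, 12.9%, 10.8%, 5.23% and 7.44% of all genes. DESeq2 gave 3 of 10 in MIX_IT and 2 among the IT groups. No filter on low counts gave 3 of 10 in MIX_IT, 1 in PTX_IT, 5 among the IT groups and 3 in the route difference for MIX. Other pathway genes, 0 in each comparison by the main test, came to 38 (NCTD_IT), 24 (MIX_IT), 10 (PTX_IT) and 4 (each IP comparison) at the unadjusted threshold, to 17, 4, 2 and 1 (MIX_IP) in DESeq2, and to 13, 6, 1 and 1 (MIX_IP) without the filter. For NCTD_IT they were 1 with DESeq2's size factors in edgeR, 11 with all 23 tumors in 1 model and 12 with only the 2 groups compared. The share of all genes called was not computed for these 3 settings, without the filter, with the Xist covariate or without a tumor. Counts under these settings are therefore not read as particular to the listed genes. No paired analysis was possible because the groups share no replicate numbers.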
